A study of Homo sapiens with 2 samples.

Results

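The actin cytoskeleton and its serum response factor (SRF) targets were examined as a list of 10 named genes, of which 9 were measured among 18417 genes in all: ACTB, ACTG1, ACTA2, TAGLN, VCL, TPM1, MYL9, ZYX and SRF. The tenth, FLNA (filamin A), was not analysed here, because no probe was assigned to it in the annotation used. Each of the 9 had 1 probe with a single gene symbol, so each value is that of 1 probe set. The material was HepG2, an established human hepatoma (liver cancer) cell line grown in MEM medium. In the SiO2-NP group the cells had been exposed for 24 h to amorphous silica nanoparticles at 100 mg/L, and in the control group they had not. Each group held 1 array, and both groups were the same line and had total RNA amplified with a whole-transcript kit. The labels name no replicate cultures, particle size or serum content.

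Actin cycles between monomers (G-actin) and filaments (F-actin), and this cycle is coupled to transcription. G-actin binds the coactivators MRTFA and MRTFB and holds them outside the nucleus; when monomers are used up by filament growth, the coactivators are freed and join SRF on a DNA element called the CArG box. The genes switched on in this way encode actin itself and proteins that bind, crosslink or contract filaments. A separate set of SRF partners, the ternary complex factors such as ELK1 and ELK4, links SRF to MAP kinase signalling and to immediate-early genes such as FOS and EGR1. In liver, high levels of smooth-muscle actin and transgelin are best known from activated stellate cells, whereas hepatocytes and hepatoma cells rely on the cytoplasmic actins.

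The CArG box is a 10-base element whose pattern is the same on both strands, and it was searched for by this name in RefSeq promoter windows of GRCh38.p14, each reaching 250 bases before to 50 bases after a transcription start. Windows were found for 7 of the 10 genes (ACTG1, ACTA2, VCL, TPM1, FLNA, ZYX and SRF), and 3 of these (ACTG1, FLNA and SRF) held a full CArG box. Over all 35116 windows, 1.29% held a full box. The stretches are shown because they are the element through which SRF is known to bind, and capitals mark the full boxes. The stretches run 5′ to 3′ on the gene's strand.
ACTG1 (chr17:81512874-81512903, minus strand): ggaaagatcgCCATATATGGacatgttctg
SRF (chr6:43171229-43171268, plus strand): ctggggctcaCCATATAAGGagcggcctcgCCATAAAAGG
FLNA (chrX:154374709-154374738, minus strand): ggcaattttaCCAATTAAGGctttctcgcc
EGR1 (chr5:138465364-138465415, plus strand): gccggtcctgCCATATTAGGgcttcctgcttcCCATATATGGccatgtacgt
SRF, the factor's own gene, carried 2 boxes in the 40 bases before one of its starts, and the window of its other start held none. EGR1, an immediate-early gene outside the 10, is shown for comparison because it had the largest difference among the related genes described below, and its stretch held 2 boxes.

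In ACTA2 and ZYX no full box was found in the windows, but stretches that miss the element by 1 base were. Capitals mark these stretches. They are common, since 18.9% of all windows held a full box or a stretch 1 base off.
ACTA2 (chr10:88952825-88952904, minus strand): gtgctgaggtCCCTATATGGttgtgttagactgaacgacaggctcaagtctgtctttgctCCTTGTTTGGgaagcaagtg
ZYX (chr7:143381229-143381258, plus strand): ccgggccgctCCTTGTATGGtctgggcgcc
ACTA2 held 2 such stretches in the window of one of its starts and none in the other. The windows of VCL and TPM1 held neither kind, which says only that these letters were not in those windows. A match of letters is a description and not a binding site.

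**Figure D1:**
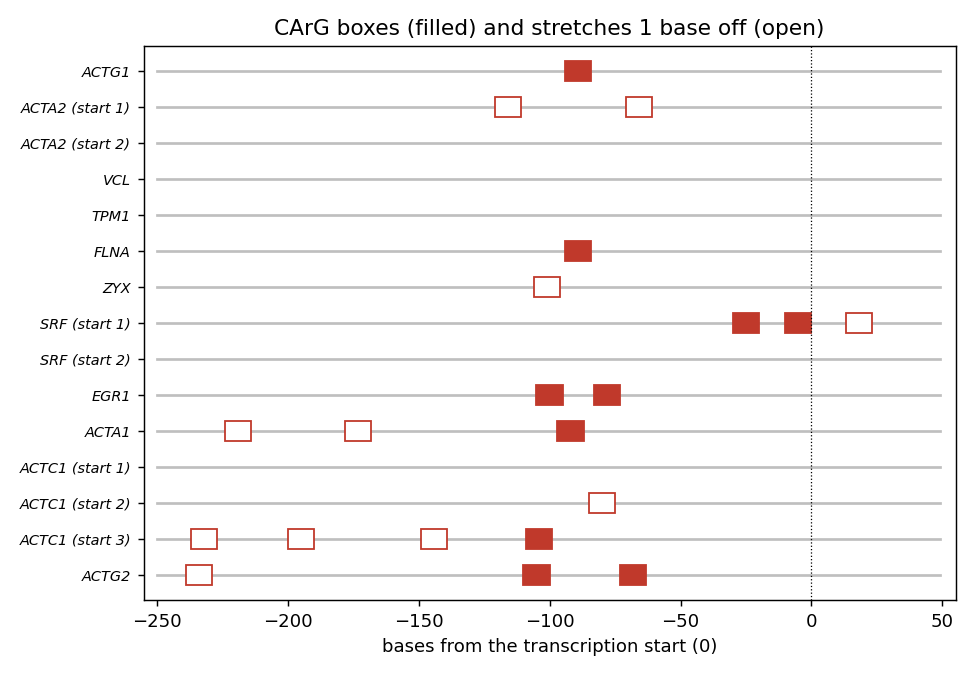
Positions of CArG boxes (filled) and of stretches 1 base off (open) in promoter windows, in bases from the transcription start, for the 7 listed genes with a window and for EGR1, ACTA1, ACTC1 and ACTG2; genes with several starts have a line for each. The 2 full boxes of SRF, both in the same one of its windows, lie nearest to the start. The full boxes of ACTG1 and FLNA both begin at position -94, counted from the first transcribed base as 0.

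Between SiO2-NP and control, the 9 measured genes differed by little, and not in 1 direction. Differences are log2 intensity in SiO2-NP minus that in control. They ran from -0.26 (ZYX) to 0.23 (TAGLN), and the median was 0.07. Of the 9, 6 were higher and 3 lower in SiO2-NP, where 52.3% of all genes were higher. The count of higher genes was 7 after a running median by level was subtracted (49.8% of all genes) and 8 after quantile normalization (55.8%). None of the 9 reached 1.5-fold (0.585 on the log2 scale), where 0.7% of all genes did. Since neither group was replicated, no error can be attached to any value and nothing was tested; higher and lower refer to this pair of arrays. In RNA from whole cultures, a change in RNA per cell and a change in the share of cells that make it cannot be told apart.

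The spread among genes of like brightness gives a scale for these values, although it is not a replicate error. For each gene, the 2.72% of all genes nearest to it in mean level were taken, and the central 95% of their differences was noted. All 9 lay inside their own range, while over all genes 2.61% lay above and 2.6% below theirs. The median size of the difference, regardless of sign, was 0.12 in the 9 genes and 0.11 in all genes. The arrays also differed with level: the median difference was -0.03 over the 9209 genes at or above the median gene level of 7.26 and 0.07 over the dimmer ones. Of the 9 genes, 8 were in the brighter group, where 40.2% of genes were higher in SiO2-NP, and TAGLN was in the dimmer group, where 64.3% were.

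The cytoplasmic actins came out near equal in both arrays. ACTB encodes beta-actin, a main subunit of non-muscle filaments and a usual reference transcript. It had a log2 intensity of 12.53 in SiO2-NP and 12.54 in control, a difference of -0.0042 that turned to 0.02 after subtraction of a running median by level and to 0.03 after quantile normalization. ACTG1 encodes gamma-actin, the other cytoplasmic subunit. It had 12.87 in SiO2-NP and 12.75 in control, a difference of 0.12 or 1.09-fold, inside the range of -0.32 to 0.28 among genes of like level. The sign of the ACTG1 difference was the same under each scaling run, unlike that of ACTB. Actin genes and their many pseudogenes share long stretches of sequence, so a probe for any actin may read more than 1 of them.

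ACTA2 encodes smooth-muscle alpha-actin, which marks contractile and activated stellate cells. Its log2 intensity was 9.61 in SiO2-NP and 9.66 in control, a difference of -0.05 that was -0.01 after subtraction of the running median and turned to 0.0041 after quantile normalization. TAGLN encodes transgelin (SM22-alpha), an actin-binding protein and a textbook SRF target. It had 7.15 in SiO2-NP and 6.92 in control, which was 1.17-fold higher (0.23) and the largest positive difference of the 9. It was the only gene of the 9 below the median gene level. The genes nearest to it in level had a median of 0.04 and a range of -0.37 to 0.42, and a difference as high as its own was met in 18.1% of the dimmer genes. Of the pair of smooth-muscle genes, TAGLN was higher in SiO2-NP under each scaling run, while ACTA2 had no stable sign.

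Among genes of contraction, MYL9 encodes a regulatory light chain of myosin II, whose phosphorylation switches on contraction. It had 8.77 in SiO2-NP and 8.61 in control, a difference of 0.16 or 1.12-fold. Genes of like level ranged from -0.36 to 0.27. TPM1 encodes a tropomyosin, a coiled-coil protein that lies along filaments and gates myosin access. It had 8.74 in SiO2-NP and 8.72 in control, a difference of 0.01, and since TPM1 makes many splice forms from alternative exons, a single probe set may average over isoforms that differ.

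The focal adhesion genes VCL and ZYX had differences of opposite sign. VCL encodes vinculin, which ties integrin-bound talin to filaments. It had 8.38 in SiO2-NP and 8.26 in control, a difference of 0.12 or 1.09-fold. ZYX encodes zyxin, a LIM-domain protein of adhesions and stress fibres that recruits VASP to sites of filament strain. It had 9.14 in SiO2-NP and 9.40 in control, which was 1.20-fold lower (-0.26) and the largest difference of the 9 in size. Genes of like level ranged from -0.33 to 0.21, and 7.64% of the brighter genes were as low as ZYX or lower. After quantile normalization ZYX still differed by -0.21 and VCL by 0.18.

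SRF itself, the MADS-box factor that binds the CArG box, had a log2 intensity of 10.12 in SiO2-NP and 10.04 in control. Its difference of 0.07 (1.05-fold) was the median of the 9 and lay within -0.33 to 0.22, the range of genes of like level. SRF activity is set mainly by its cofactors and not by its own transcript, and neither activity nor filament content was measured on these arrays.

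**Figure D2:**
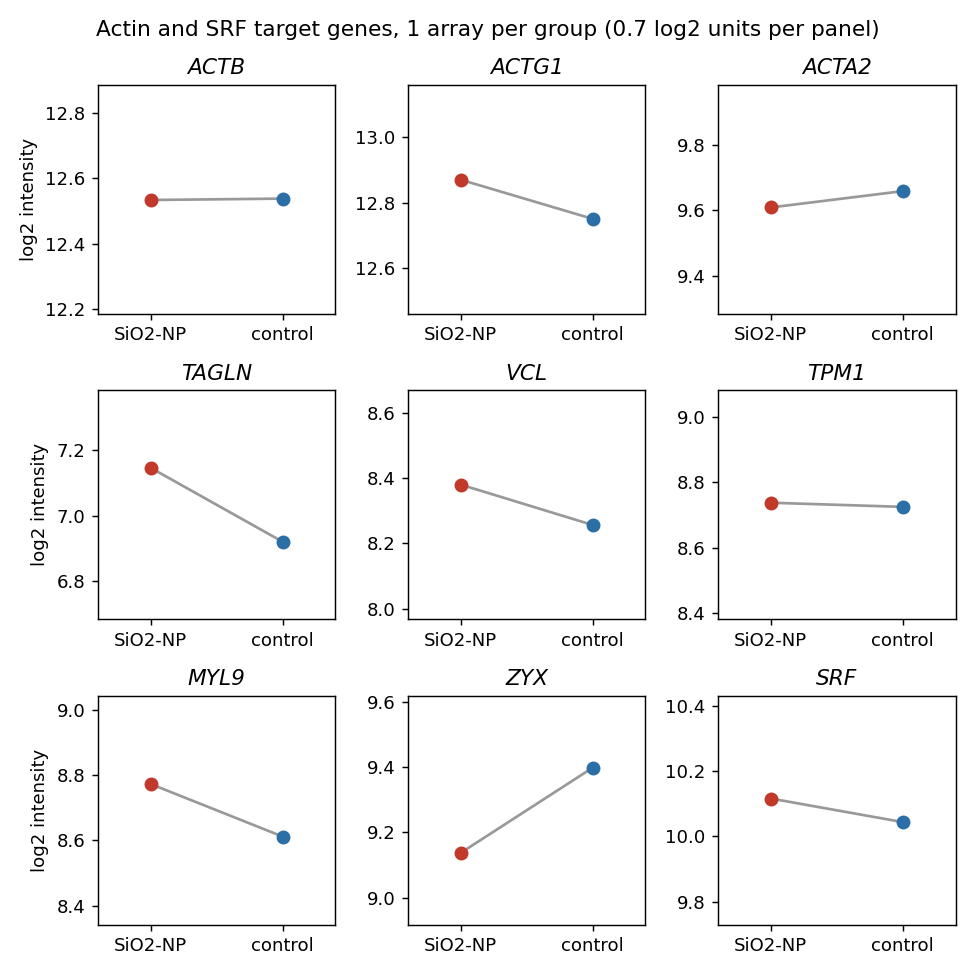
Log2 intensity of the 9 measured genes in the SiO2-NP array (left, red) and the control array (right, blue); every panel spans 0.7 log2 units, and each point is 1 array, so there are no error bars. TAGLN slopes down toward control (7.15 in SiO2-NP, 6.92 in control), ZYX slopes up (9.14 and 9.40) and ACTB is flat (12.53 and 12.54).

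**Figure D3:**
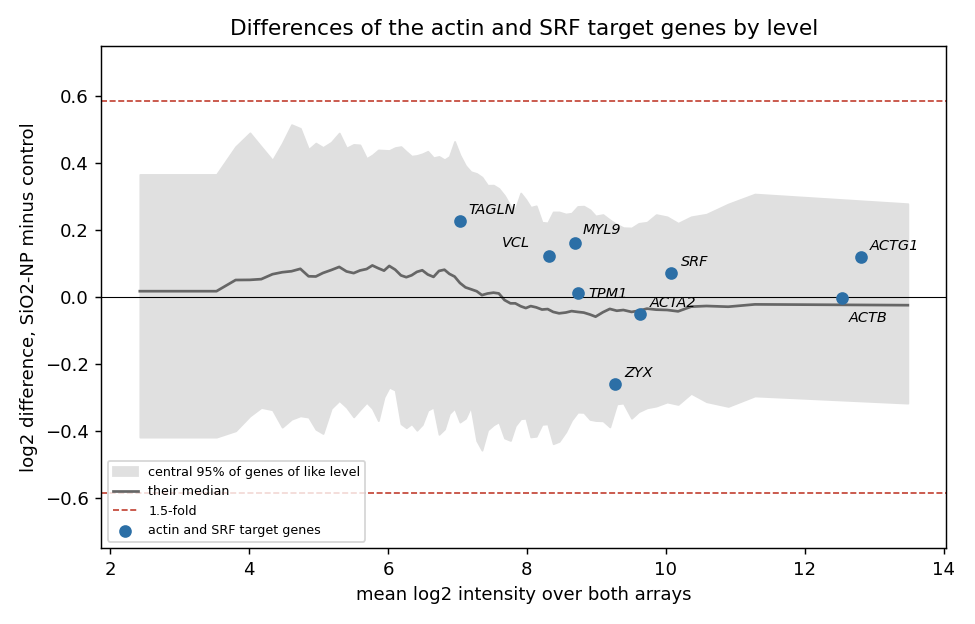
Log2 difference, SiO2-NP minus control, against mean log2 intensity for the 9 genes (blue), with the central 95% (grey band) and the median (line) of the 2.72% of genes nearest in level and the 1.5-fold lines (dashed). All 9 genes lie inside the band, with TAGLN (0.23) highest and ZYX (-0.26) lowest.

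Related genes were then taken from lists of actin and SRF biology, 133 genes besides the 10, of which 115 were measured. None of the 115 reached 1.5-fold, where 0.7% of all genes did. Their median difference was 0.03, against 0.0095 over all genes, and 70 of the 115 were higher in SiO2-NP, beside 52.3% of all genes. Of the 115, 97 were at or above the median gene level, where 40.2% of genes were higher. The count of higher genes among the 115 was 67 after centring on the median, where 9208 of all 18417 genes were higher. It was 75 after the running median (49.8% of all genes) and 77 after quantile normalization (55.8%). Against genes of like level, 3 of the 115 lay above the central 95% (EGR1, CAP2 and BCAR1) and 0 lay below it, beside the 2.61% and 2.6% of all genes.

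The other muscle-type actins differed among themselves. ACTA1, skeletal alpha-actin, had 8.34 in SiO2-NP and 8.12 in control, a difference of 0.22. ACTC1, cardiac alpha-actin, had 5.72 and 5.98 in the same order, a difference of -0.25, and ACTG2, enteric smooth-muscle gamma-actin, had 5.77 and 5.96, a difference of -0.19. Both ACTC1 and ACTG2 are dim, below the median gene level. ACTA1, ACTC1 and ACTG2 each have a full CArG box in a promoter window, as the map of these windows shows; ACTA1 was higher and ACTC1 and ACTG2 lower in SiO2-NP. ACTL6A, an actin-related subunit of nuclear chromatin complexes, had 8.57 in SiO2-NP and 8.82 in control, a difference of -0.25.

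The SRF cofactors lay close to 0. Of 7 measured, 6 were higher in SiO2-NP, beside 52.3% of all genes, with a median of 0.02 and a range from -0.11 to 0.11. At or above the median gene level, where 40.2% of genes were higher, were 5 of the 7. The count of higher cofactors was 5 after the running median (49.8% of all genes), with a median of 0.0053. It was 5 after quantile normalization (55.8% of all genes). MRTFB, the actin-regulated coactivator, had 8.96 in SiO2-NP and 8.91 in control (0.05). The ternary complex factor ELK4 differed by 0.04, and SCAI, a repressor that binds the MRTF proteins, by -0.11. MRTFA was not analysed here, since its probe carried several gene symbols.

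Targets of SRF were taken as MRTF-type and as immediate-early genes. Of the MRTF-type list, 14 of 22 measured genes were higher in SiO2-NP and 8 lower, with a median of 0.10, where 52.3% of all genes were higher. Of the 22, 16 were at or above the median gene level, where 40.2% of genes were higher. TGFB1I1 (Hic-5), an adhesion LIM protein, differed by 0.21, PDLIM7, a PDZ-LIM scaffold of filaments, by 0.19, and the integrin subunit ITGB1 by -0.18. The largest difference of this list was in a dim gene, calponin CNN1, with 6.91 in SiO2-NP and 6.56 in control (0.35); the choice to name it followed its value. Of the immediate-early list, which also holds SRF, 7 of 9 measured genes were higher, with a median of 0.10, beside the same 52.3% of all genes. At or above the median gene level were 7 of these 9. EGR1, a zinc-finger factor whose promoter carries the boxes shown above, had 10.03 in SiO2-NP and 9.53 in control, a difference of 0.50 or 1.42-fold, against a range of -0.33 to 0.24 among genes of like level. The orphan receptor NR4A1 differed by 0.24 and FOS, an AP-1 subunit, by 0.19.

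The lists of adhesion, nucleation and contractile genes had small medians, each of the same sign under each scaling run. Most of their genes were at or above the median gene level, where 40.2% of all genes were higher. In the focal adhesion list 12 of 18 genes were higher in SiO2-NP, with a median of 0.02. BCAR1 (p130Cas), a scaffold that senses stretch at adhesions, had 8.72 in SiO2-NP and 8.42 in control (0.30), and the integrin subunit ITGAV had 11.12 and 10.84 in the same order (0.28).

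In the list of Arp2/3 and nucleation genes 5 of 17 were higher and 12 lower in SiO2-NP, with a median of -0.06 that stayed below 0 under each scaling run (-0.02 after the running median and -0.0053 after quantile normalization). Of the 17 genes, 7 were higher after the running median, beside 49.8% of all genes. The 5 higher genes were ARPC5 and ARPC1B (0.06 each), ARPC1A and cortactin CTTN (0.02 each) and WASL (0.0041). The formin DIAPH3, which elongates unbranched filaments, differed by -0.24, the WAVE complex subunit NCKAP1 by -0.18 and the Arp2/3 subunit ARPC3 by -0.12. In the list of tropomyosins and myosin II 3 of 11 were higher and 8 lower, with a median of -0.07. MYLK, the kinase for myosin light chains such as that of MYL9, had 7.78 in SiO2-NP and 7.97 in control (-0.19). The light chain MYL12A differed by -0.17, the heavy chains MYH9 and MYH14 by 0.14 and 0.11, and the tropomyosins TPM4 and TPM2 by 0.12 and -0.08.

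Monomer-binding and severing genes were split, with 8 of 15 higher in SiO2-NP, beside 52.3% of all genes, and a median of 0.02. Of the 15, 14 were at or above the median gene level, where 40.2% of genes were higher. CAP2, a cyclase-associated protein that recycles monomers, had 9.80 in SiO2-NP and 9.49 in control (0.32, or 1.24-fold), and the monomer-binding thymosin TMSB10 had 11.94 and 11.67 in the same order (0.28). The capping protein subunit CAPZA2 had 10.76 in SiO2-NP and 11.02 in control (-0.25). Of the crosslinkers, 7 of 10 were higher, beside 52.3% of all genes, with a median of 0.06. Of these 10, 8 were at or above the median gene level. The count of higher crosslinkers was 6 after the running median (49.8% of all genes) and 6 after quantile normalization (55.8%). Alpha-actinin ACTN4 (0.12 or 1.09-fold) and fascin FSCN1 (0.09) were higher, while RDX, the membrane linker radixin, differed by -0.16. FLNC and TPM3 were not analysed here.

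**Figure D4:**
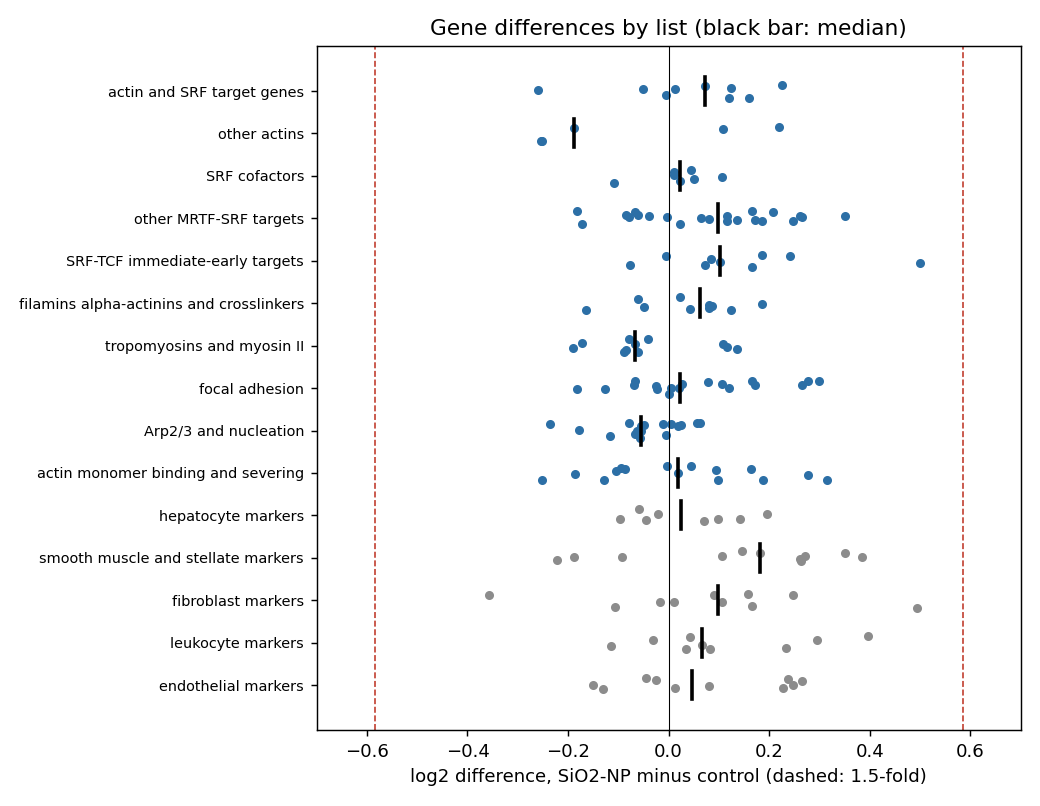
Log2 difference, SiO2-NP minus control, of the measured genes by list (points; marker lists in grey), with the list median (black bar) and the 1.5-fold lines (dashed); a gene in several lists appears in each. No point reaches 1.5-fold, and EGR1 (0.50) is the farthest right.

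Genes with a full CArG box in a promoter window were also taken from all measured genes, whatever their function. Of 242 such genes, 141 (58.3%) were higher in SiO2-NP, with a median of 0.03, beside 51.3% of the 14239 measured genes that had a window. At or above the median gene level, 58 of 115 (50.4%) were higher, beside 40.0% of genes with a window. Below it, 83 of 127 (65.4%) were higher, beside 64.0%. Of the 242, 1 reached 1.5-fold, beside 49 higher and 31 lower of the 14239 genes with a window. It was FXYD1, phospholemman, a regulator of the sodium pump, a dim gene with 7.33 in SiO2-NP and 6.61 in control (0.72). At or above the median gene level, the 6 largest differences among these genes went both ways: EGR1 (0.50), PHTF1 (0.44) and KLF7 (0.39) were higher in SiO2-NP, and MTIF3 (-0.48), NDUFB6 (-0.45) and PDCL3 (-0.41) lower. These, EGR1 included, and FXYD1 were named for the size of their differences, after their values were seen.

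Marker genes were read as a check of the cell type. All 8 measured hepatocyte markers were bright, at 11.04 to 13.41 in SiO2-NP and 10.97 to 13.50 in control, which fits the label. Of these 8, 4 were higher in SiO2-NP (TTR by 0.20, TF by 0.14, APOA1 by 0.10 and SERPINA1 by 0.07) and 4 lower (ALB at -0.10, APOB at -0.06, FGB at -0.05 and AFP at -0.02), with a median of 0.02. All 8 hepatocyte markers were at or above the median gene level, where 40.2% of genes were higher. Of 11 smooth muscle and stellate markers 1 reached the median gene level (SMTN, -0.09). In SiO2-NP 8 of the 11 were higher, beside 64.3% of all dim genes, with a median of 0.18 beside 0.07 over all dim genes. The median of these 11 markers was 0.10 after the running median. Their levels ran from 4.55 to 7.58 in SiO2-NP and from 4.77 to 7.67 in control. Their summed intensity was 9.91 in SiO2-NP and 9.78 in control on the log2 scale. TAGLN, which such cells also express, was higher as well (0.23), while ACTA2, which marks them, was lower (-0.05) with no stable sign. Both arrays were labelled HepG2, and a contribution of such cells was not tested. For fibroblast markers, 1 of 10 reached the median gene level (COL1A1, 0.25), and for endothelial markers 1 of 10 (ENG, 0.26). For leukocyte markers 3 of 9 did (LYZ at 0.04, CD68 at -0.11 and CORO1A at -0.03). LYZ was as bright as the hepatocyte markers, at 13.27 in SiO2-NP and 13.23 in control. CD68 had 9.49 and 9.61 in the same order, so the markers of other cell types were not all dim. Of the fibroblast markers 7 were higher and 3 lower in SiO2-NP, where 64.3% of all dim genes were higher. The fibroblast markers ran from -0.36 (PDGFRA) to 0.49 (POSTN). Their median of 0.10 was 0.02 after the running median. Of the endothelial markers 6 were higher and 4 lower, beside the same 64.3% of all dim genes. The endothelial markers ran from -0.15 (TIE1) to 0.26, with a median of 0.05 that turned to -0.04 after the running median. Of the leukocyte markers 7 were higher and 2 lower, beside 64.3% of all dim genes and 40.2% of the brighter ones. The leukocyte median of 0.07 was 0.02 after the running median. Without detection calls, a dim probe cannot be told from an absent transcript.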

How the data were processed

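The deposited table holds 1 log2 intensity per probe set and array for 33297 probe sets. The scale was read from the values (2.08 to 14.4, with medians of 6.69 in SiO2-NP and 6.65 in control). Per the submitters' processing notes, the tools were RMA and MAS5, and the sources used here do not say which of them the deposited log2 values came from. A method that sets array distributions equal would hide a change shared by most transcripts.

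Of the probe sets, 19460 had a single gene symbol in the platform annotation and were averaged per gene (18417 genes, 769 with several probe sets), 1754 had several symbols and 12083 had none. Symbols were updated through gene identifiers in RefSeq (GRCh38.p14). The difference is SiO2-NP minus control; 1 array per group allows no test, and an array has no read depth. Genes named from the lists were mainly the 3 with the largest absolute difference at or above the median gene level, any past 1.5-fold, and a few relatives of the members. Named outside this rule, with their values known, were CNN1, MYH14 and the higher genes of the Arp2/3 list. So were the remaining hepatocyte markers and the extremes of other marker lists (POSTN, PDGFRA and TIE1). The members and lists were chosen with earlier results of these data known. Results of 1 of the related lists are not reported here, although its genes are in the total over the lists. Calculations were tested on simulated data. The software was pandas 2.3.3 and NumPy 2.4.6 under Python 3.11.15, with matplotlib 3.10.9 for figures.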

Additional observations from a re-analysis of the deposited data

How the results depend on the processing

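Alternatives were centring on the median, subtracting a running median by level (over 2.72% of genes), quantile normalization, the brightest probe of a gene, keeping probes with several symbols, filters at the median and at the 75th percentile of level, and thresholds of 0.322 on the log2 scale and 2-fold. A log2 value was said to have moved if it shifted by over 0.1 and a count if by over 1.5 times. By that measure 96 of 98 recomputed values stayed and 2 moved. The limit of 0.1 is larger than the 9-gene median of 0.07, so a value could change sign and still count as stayed. Each of the 9 genes had 1 probe, so taking the brightest probe or filtering by level could not change a single-gene value. The tally is therefore no measure of how stable these small differences are. With the filter at the 75th percentile 2 of the 5 genes left were higher, in place of 6 of 9. The share of higher genes fell along with the count, since all 3 lower genes (ACTB, ACTA2 and ZYX) were among the 5. Over all genes this share also fell with level, from 64.3% below the median gene level to 40.2% at or above it. The share of all genes past the 75th percentile filter is not given here, so the 2 of 5 is not read as a change in the listed genes. Without a filter, the count of higher genes was 7 after the running median and 8 after quantile normalization. At 0.322 on the log2 scale 2 of the 115 related genes passed (EGR1 and CNN1), in place of 0. The share of all genes past 0.322 is not given here, so this count is not read as a result about the related genes. The median over the 9 genes was 0.06 after centring, 0.11 after the running median, 0.12 after quantile normalization, 0.04 at or above the median level (the same genes as without TAGLN, an alternative chosen after seeing the data) and -0.0042 with the stricter filter. The largest move of a single gene was 0.06, and ACTB and ACTA2 changed sign. The comparison with genes of like level and the set of genes with a CArG box were also chosen after seeing the data. A planned change of pseudocount was not run, because the table is on a log2 scale. No paired analysis was possible because neither group had replicates, so leaving 1 out was not possible either.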
